A study of Mus musculus with 15 samples.

Results

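The genes described here were the Wnt receptors and co-receptors Fzd1, Fzd4, Fzd5, Fzd7, Fzd8, Lgr4, Lrp5 and Lrp6, together with Ctnnb1, the gene of β-catenin, in intestinal macrophages and blood monocytes of the mouse. The 9 genes were chosen by symbol because earlier results from these same data drew attention to Fzd8 and Lgr4, so their levels and fold changes are given as a description, without p-values. All 9 were found among the 19456 genes of the deposited count table, and all 9 passed the filter on low counts that left 15802 genes. Fzd8 also passed it in a fit of Tim-4-CD4+ macrophages and monocytes alone, without the population in which it was high. It did not pass in a fit of Tim-4-CD4- macrophages and monocytes alone.

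RNA was sequenced from 4 populations sorted by flow cytometry from wild type adult male C57BL/6 mice, in 15 libraries. The 3 libraries of Ly6Chi monocytes came from peripheral blood, and 4 libraries each came from small intestine macrophages that were Tim-4-CD4-, from Tim-4-CD4+ ones and from Tim-4+CD4+ ones, subsets defined by surface staining for the phosphatidylserine receptor Tim-4 and for CD4. Each library held cells pooled from 3 mice, except monocyte replicate 2, which held cells from 4 mice, and the libraries of 1 population came from separate sorts. Subsets taken in the same sort may share mice, and which libraries share a sort is not given in the sources used here. Replicates are numbered as in the sample titles. For Tim-4-CD4+ macrophages the deposited columns carry other numbers, 3, 4, 1 and 2 for replicates 1 to 4. In the sort of the gut macrophages, Ly6C+ cells were excluded through the lineage channel and cells were not gated on CD11c first.

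The counts per library summed to between 39388763 and 151510641, with a median of 63249039. Levels are given as counts per 1e+06 reads (CPM) scaled by the trimmed mean of M values, and a value after ± is the SD over the 3 monocyte libraries or the 4 libraries of a subset (n = 3 or n = 4). Where 3 values are listed for the macrophage subsets, they stand in the order Tim-4-CD4-, then Tim-4-CD4+, then Tim-4+CD4+. Limits set by a count of 0 cover counting error only. The genes of the sorted proteins followed the labels: Timd4 reached 355 ± 25.2 CPM in the Tim-4+CD4+ subset and no more than 4.47 CPM in any other library. Cd4 averaged 22.9 ± 11.2 CPM in the Tim-4-CD4- subset, and its mean was 531 ± 51.0 CPM in the Tim-4-CD4+ subset. The summed level of 8 macrophage markers ran from 23450 to 30060 CPM in the macrophage libraries and from 3877 to 4365 CPM in monocytes. Markers of other cell types were present. The 11 fibroblast and smooth muscle markers summed to 86.9 to 124 CPM in Tim-4-CD4- libraries, 98.1 to 124 CPM in Tim-4-CD4+ libraries and 133 to 198 CPM in Tim-4+CD4+ libraries, with none of the 11 at 0 in any macrophage subset. In monocytes they summed to 10.8 to 14.2 CPM, and 4 of the 11 were at 0. The 8 endothelial markers summed to 127 to 173, 204 to 257 and 343 to 433 CPM in the same 3 subsets. Pecam1 made up most of that sum, at means of 104, 185 and 305 CPM, whereas Cdh5, Kdr, Plvap, Tek and Egfl7 had lower means in the Tim-4-CD4+ than in the Tim-4-CD4- subset, and the median log2 fold change of the 8 there was -0.51. The 7 B and plasma cell markers summed to 241 to 430 CPM in macrophage libraries and 8.48 to 10.6 CPM in monocytes, and the 6 dendritic cell markers to 105 to 188 CPM and 77.9 to 103 CPM. The 15 epithelial markers summed to 15.3 to 38.2 CPM in macrophage libraries and 2.17 to 2.82 CPM in monocytes, the 9 T cell markers to 3.86 to 15.4 CPM and 0.263 to 0.545 CPM, and the 5 granulocyte markers in the table to 5.68 to 17.1 CPM and 0.446 to 1.91 CPM. The 7 neural markers summed to at most 2.63 CPM in the Tim-4- subsets and 5.87 to 7.63 CPM in the Tim-4+CD4+ subset. In sorted populations measured in bulk, fewer cells that express a gene and less RNA per cell cannot be told apart.

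Wnt proteins are secreted lipid-modified ligands that bind Frizzled receptors, proteins with a cysteine-rich extracellular domain and a membrane-spanning domain. In the canonical branch, a Frizzled and the co-receptor LRP5 or LRP6 bind the ligand together, the complex that destroys β-catenin is inhibited, and β-catenin enters the nucleus to act with TCF and LEF factors. LGR4 and its relatives bind R-spondins, which remove the ubiquitin ligases ZNRF3 and RNF43 that would otherwise clear Frizzleds from the membrane. In the gut the pathway is best known for maintaining the stem cells of the epithelial crypt.

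Among the members with reads in every library, Lgr4 had the largest difference upward and Fzd4 the largest downward between Tim-4+CD4+ macrophages and monocytes, and the bases just upstream of their starts are shown for that reason. In the GENCODE annotation of GRCm38, Lgr4 (ENSMUSG00000050199.13) spans chromosome 2 from 109917647 to 110014257 and Fzd4 (ENSMUSG00000049791.4) spans chromosome 7 from 89404355 to 89413134, both on the plus strand. The windows are read 5′ to 3′ on the plus strand from RefSeq sequence of GRCm38.p6 and end 1 base before the annotated start of the gene. They are chr2:109917397-109917646 for Lgr4 and chr7:89404116-89404354 for Fzd4, and capitals mark matches to the GC box (GGGCGG) or the CCAAT box (CCAAT) on either strand.
Lgr4: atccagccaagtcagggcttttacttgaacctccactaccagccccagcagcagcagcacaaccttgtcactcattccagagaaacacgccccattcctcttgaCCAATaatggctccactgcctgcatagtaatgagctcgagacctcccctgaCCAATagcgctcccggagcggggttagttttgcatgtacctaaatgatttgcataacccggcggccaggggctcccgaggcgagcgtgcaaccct
Fzd4: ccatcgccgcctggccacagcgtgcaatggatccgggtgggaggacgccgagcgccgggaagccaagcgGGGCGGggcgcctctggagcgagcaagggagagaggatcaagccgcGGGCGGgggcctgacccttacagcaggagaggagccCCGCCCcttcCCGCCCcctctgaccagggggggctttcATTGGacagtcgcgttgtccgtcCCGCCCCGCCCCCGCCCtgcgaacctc
The Fzd4 window held 7 GC boxes, counting overlapping matches singly, and 1 CCAAT box in 72.8% G and C. The Lgr4 window held 2 CCAAT boxes in 55.6% G and C, with no GC box. Among 32851 upstream windows of all genes, 32.7% held a GC box and 33.8% a CCAAT box, and the median G and C content was 52.4%. Neither window held the TCF/LEF core CTTTGAT (3.21% of all windows) or the PU.1 core GAGGAAGT (2.44% of all windows). Windows were at hand for 6 of the 9 members, and none of the 6 held either core.

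Fzd8 (ENSMUSG00000036904.5, chromosome 18 from 9212163 to 9218136, plus strand) had the sharpest contrast between populations. It was at 5.94, 3.12, 4.15 and 4.44 CPM in Tim-4+CD4+ replicates 1 to 4. In Tim-4-CD4+ macrophages it was at 0.183, 0.0759, 0.192 and 0.378 CPM, and in Tim-4-CD4- macrophages at 0.0365, 0.0168, 0.194 and 0.207 CPM. No read fell on Fzd8 in any of the 3 monocyte libraries, in which 3 reads would have been worth 0.0213, 0.0292 and 0.0557 CPM. Every Tim-4+CD4+ library lay above every other library, while the libraries of both Tim-4- subsets overlapped. The reads behind these levels numbered 258 to 610 per library in Tim-4+CD4+ macrophages, 3 to 56 in Tim-4-CD4+ macrophages and 1 to 9 in Tim-4-CD4- macrophages, so the low levels rest on few reads.

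The fitted log2 fold change of Fzd8 was 4.30 (SE 0.54) for Tim-4+CD4+ against Tim-4-CD4+ macrophages and 5.36 (SE 0.60) against Tim-4-CD4- macrophages. Between both Tim-4- subsets it was 1.06 (SE 0.61), within the spread of their libraries. Against monocytes only a bound can be given, and with 3 reads per monocyte library in place of 0 the Tim-4+CD4+ level was at least 125-fold higher. The fibroblast and smooth muscle markers were also highest in Tim-4+CD4+ macrophages. They summed to 198, 152, 133 and 177 CPM in Tim-4+CD4+ replicates 1 to 4, and 2 of the 11 rose against Tim-4-CD4+ macrophages and 5 of the 11 against Tim-4-CD4- macrophages in edgeR's quasi-likelihood test. Of the 8 endothelial markers, Pecam1 and Esam rose in each of these comparisons. The part of these cell types in the level of Fzd8 was not tested.

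Fzd4 was highest in blood. The receptor is known for binding Norrin as well as Wnts. Monocyte libraries had 12.2, 25.8 and 18.4 CPM. Tim-4-CD4- libraries had 2.32, 1.78, 1.53 and 1.29 CPM, Tim-4-CD4+ libraries had 1.01, 0.480, 0.460 and 1.01 CPM, and Tim-4+CD4+ libraries had 0.681, 0.843, 1.29 and 1.36 CPM. The monocyte libraries lay above all macrophage libraries, and the Tim-4-CD4- libraries above all Tim-4-CD4+ libraries. The log2 fold change against monocytes was -3.43 (SE 0.34) in Tim-4-CD4-, -4.64 (SE 0.35) in Tim-4-CD4+ and -4.19 (SE 0.35) in Tim-4+CD4+ macrophages. For Tim-4-CD4+ macrophages against Tim-4-CD4- macrophages it was -1.21 (SE 0.32), on 19 to 149 reads per library. The 6 monocyte markers summed to 5646 to 7590 CPM in monocytes and to 516 to 765, 68.3 to 126 and 8.46 to 19.0 CPM in the 3 macrophage subsets, and all 6 fell in each subset against monocytes. Between subsets 1 of the 6 fell, Ccr2, which made up most of the sum at means of 660, 84.1 and 8.39 CPM. Fzd4 averaged less in Tim-4-CD4+ than in Tim-4+CD4+ macrophages, where the sum was in the reverse order. The libraries of these 2 subsets overlapped for Fzd4, with a log2 fold change of 0.45 (SE 0.32) for Tim-4+CD4+ against Tim-4-CD4+. The part of monocytes in the level of Fzd4 was not tested.

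Fzd5 (ENSMUSG00000045005.9, chromosome 1 from 64730558 to 64737751, minus strand) was higher in all 3 macrophage subsets than in monocytes. Monocyte libraries had 5.21, 5.55 and 4.51 CPM. Macrophage libraries ran from 11.8 to 15.6 CPM in the Tim-4-CD4- subset, 11.2 to 12.1 CPM in the Tim-4-CD4+ subset and 7.15 to 14.5 CPM in the Tim-4+CD4+ subset. These 3 ranges overlapped, and none reached down to monocytes. The log2 fold change against monocytes lay between 1.10 (SE 0.18) and 1.39 (SE 0.18).

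Fzd7 (ENSMUSG00000041075.8, chromosome 1 from 59482424 to 59486955, plus strand), a receptor used by intestinal stem cells, was highest in monocytes, at 24.3, 28.1 and 28.6 CPM. It averaged 16.1 ± 3.16, 17.9 ± 3.99 and 20.3 ± 4.00 CPM in the 3 macrophage subsets. The highest Tim-4+CD4+ library, at 25.9 CPM, overlapped with monocytes. Fzd1 (ENSMUSG00000044674.6, chromosome 5 from 4753839 to 4758035, minus strand) was low throughout, at 0.942, 1.00 and 1.30 CPM in monocytes and at 1.37 to 2.46 CPM in macrophage libraries, with no overlap between monocytes and macrophages but overlap among all 3 subsets.

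**Figure D1:**
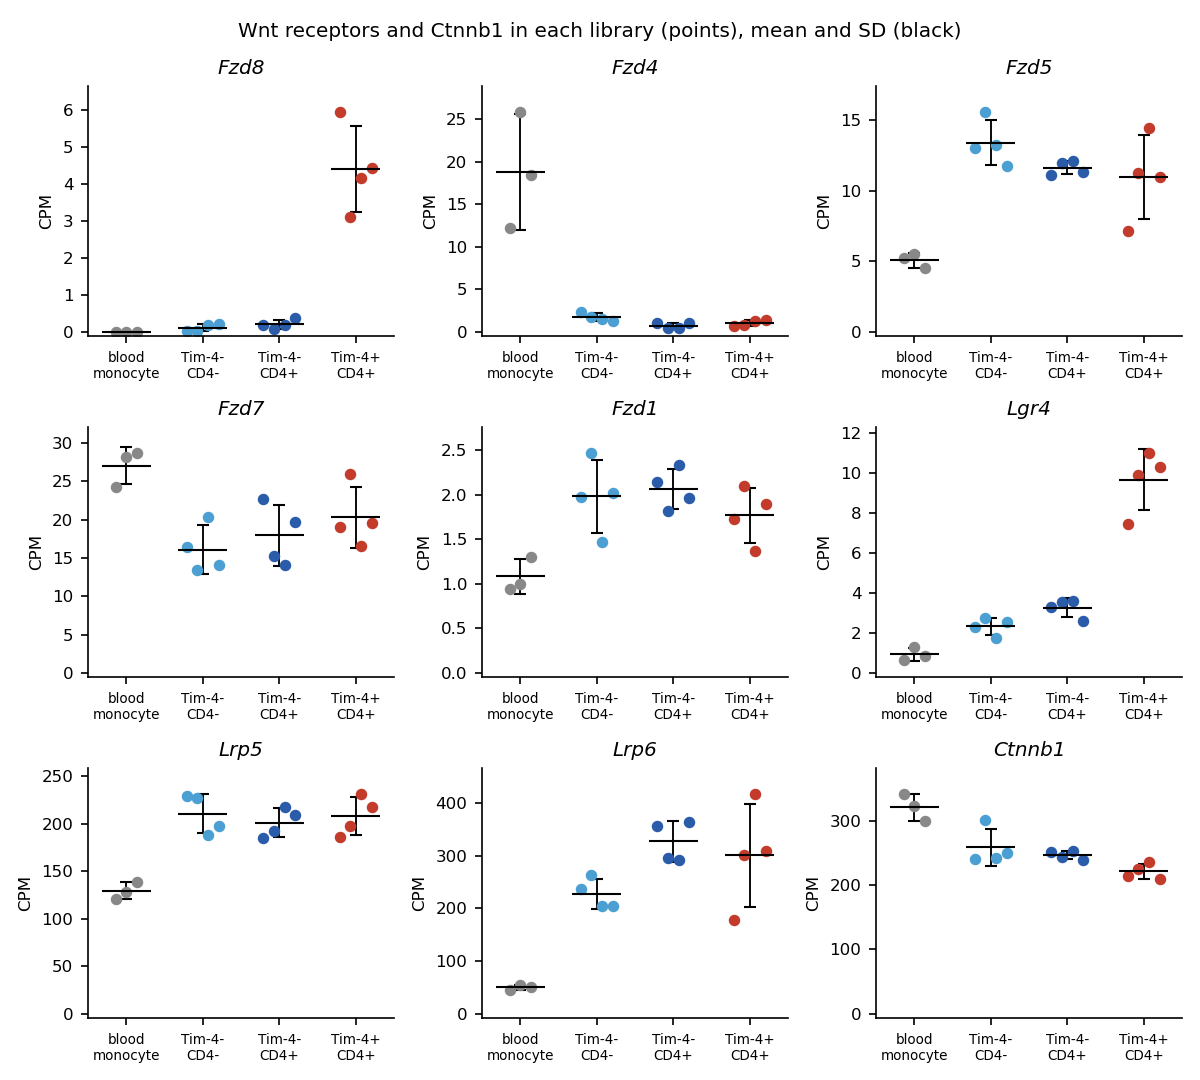
CPM of the 9 genes in each of the 15 libraries (points, 1 panel per gene, linear axis) with the mean (horizontal line) and SD (bars) of each population. Fzd8 is near 0 except in the Tim-4+CD4+ libraries, which sit between 3.12 and 5.94, Lgr4 is highest in the same libraries, and Fzd4 is highest in monocytes.

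Lgr4 was lowest in blood and highest in Tim-4+CD4+ macrophages. Monocyte libraries had 0.666, 1.29 and 0.836 CPM. Tim-4-CD4- libraries had 2.30, 2.73, 1.72 and 2.56 CPM, Tim-4-CD4+ libraries had 3.32, 3.57, 3.62 and 2.58 CPM, and Tim-4+CD4+ libraries had 7.46, 9.93, 11.0 and 10.3 CPM. Monocytes lay below all macrophages and Tim-4+CD4+ macrophages above both other subsets, which overlapped. The log2 fold change of Tim-4+CD4+ macrophages was 1.57 (SE 0.21) against Tim-4-CD4+, 2.05 (SE 0.22) against Tim-4-CD4- and 3.37 (SE 0.26) against monocytes. For Tim-4-CD4+ macrophages against Tim-4-CD4- macrophages it was 0.48 (SE 0.21). Within the Tim-4+CD4+ subset, replicate 1 had the lowest level of Lgr4, the highest of Fzd8 and the highest sum of fibroblast and smooth muscle markers, whose part in these levels was not tested.

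Both co-receptors were higher in macrophages than in blood. Lrp6 (ENSMUSG00000030201.15, chromosome 6 from 134446476 to 134566965, minus strand) was at 44.7, 54.5 and 51.9 CPM in monocytes and at 204 to 263 CPM in Tim-4-CD4-, 292 to 364 CPM in Tim-4-CD4+ and 178 to 416 CPM in Tim-4+CD4+ macrophages. The lowest macrophage library was more than 3 times the highest monocyte library, and the widest range was within the Tim-4+CD4+ subset, in which replicate 1 was lowest. Over the counts of all genes, that replicate also stood apart from the rest of its subset. Its chi-square per degree of freedom against them was 196 to 250, and theirs against each other was 36.2 to 69.2. The log2 fold change of Lrp6 against monocytes was 2.17 (SE 0.21), 2.70 (SE 0.22) and 2.58 (SE 0.22) in the 3 macrophage subsets. The Tim-4-CD4+ libraries lay above all Tim-4-CD4- libraries, with a log2 fold change of 0.53 (SE 0.18), and the Tim-4+CD4+ libraries overlapped with both. Lrp5 (ENSMUSG00000024913.16, chromosome 19 from 3584828 to 3686564, minus strand) was at 121, 128 and 139 CPM in monocytes and at 185 to 231 CPM in macrophage libraries, with log2 fold changes of 0.64 (SE 0.10) to 0.70 (SE 0.10) against monocytes. Between macrophage subsets the log2 fold change of Lrp5 lay between -0.07 (SE 0.09) and 0.05 (SE 0.09).

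Ctnnb1 (ENSMUSG00000006932.16, chromosome 9 from 120929216 to 120960507, plus strand) was lower in macrophages. Monocyte libraries had 341, 323 and 299 CPM, and the macrophage subsets averaged 258 ± 28.8, 247 ± 6.68 and 221 ± 12.1 CPM. Tim-4-CD4- replicate 2, at 301 CPM, overlapped with monocytes, and the other 11 macrophage libraries did not. The log2 fold change against monocytes was -0.31 (SE 0.09), -0.38 (SE 0.09) and -0.54 (SE 0.09). All Tim-4+CD4+ libraries, at 210 to 236 CPM, lay below those of both other subsets, with log2 fold changes of -0.22 (SE 0.08) against Tim-4-CD4- and -0.16 (SE 0.08) against Tim-4-CD4+ macrophages. The annotation holds Ulk4 on the opposite strand of Ctnnb1 over 5157 bases, and the strand setting of the counting is not given in the sources used here. No library had more than 1.81 CPM on Ulk4, a level that cannot show how reads over the overlap were assigned. Of the transcript stretches of 65 bases in Ctnnb1, 11.6% also occurred in Ulk4, and 1107 of 6913 in Fzd5 occurred in Gm38058. For Fzd1, Fzd4, Fzd7, Fzd8, Lgr4 and Lrp5 none was shared with another gene, and for Lrp6 0.473% were.

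Set against all tested genes, the members' calls are as follows. At an adjusted p under 0.05, 9 of the 9 members passed between Tim-4-CD4- macrophages and monocytes, where 65.4% of all genes did. Between Tim-4-CD4+ macrophages and monocytes 9 passed with 69.8% of all genes, and between Tim-4+CD4+ macrophages and monocytes 8 passed with 70.9% of all genes, the exception being Fzd7. Between subsets the members past the threshold were Fzd4 for Tim-4-CD4+ against Tim-4-CD4- (1 of 9, with 10.1% of all genes), Fzd8 and Lgr4 for Tim-4+CD4+ against Tim-4-CD4- (2 of 9, with 23.1%), and the same 2 genes for Tim-4+CD4+ against Tim-4-CD4+ (2 of 9, with 3.41%). By libraries that did not overlap, 8, 9 and 8 members were separate from monocytes in the 3 macrophage subsets, where 67.6%, 70.1% and 68.7% of all genes were. In the comparisons between subsets, in the order above, 2, 3 and 3 members were separate, where 19.1%, 26.4% and 9.63% of all genes were. The genes had been chosen with these contrasts known, so nothing is read from the counts. The call for Fzd4 was lost when Tim-4-CD4- replicate 1, Tim-4-CD4+ replicate 2 or Tim-4-CD4+ replicate 3 was left out. Fitted with those 2 groups alone, Fzd8 did not pass the filter on low counts for Tim-4-CD4- macrophages against monocytes, so it was not tested there. Fzd7 was called in Tim-4+CD4+ macrophages against monocytes without Tim-4-CD4+ replicate 1 or Tim-4+CD4+ replicate 2. Lrp6 was called in Tim-4-CD4+ against Tim-4-CD4- macrophages by DESeq2, with those 2 groups alone, and without Tim-4+CD4+ replicate 1 or 3. In Tim-4+CD4+ against Tim-4-CD4- macrophages, Lrp6 was called without Tim-4+CD4+ replicate 1 and Fzd5 without replicate 3.

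**Figure D2:**
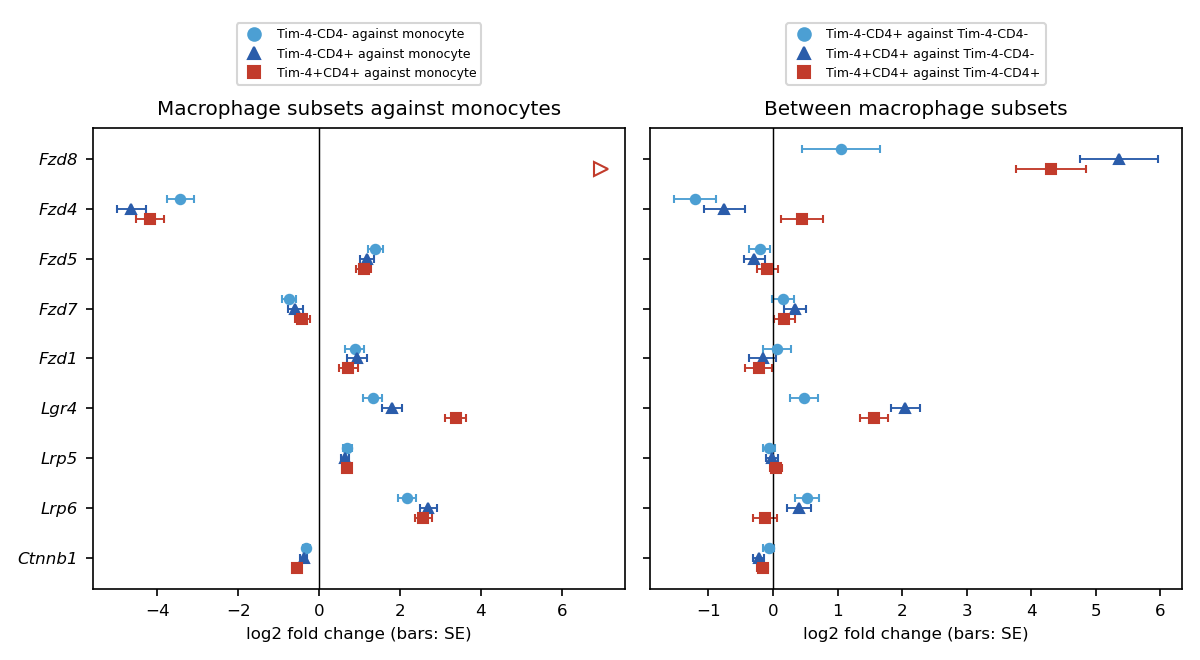
Log2 fold change of each gene (points, bars SE) for the 3 macrophage subsets against monocytes (left) and between subsets (right). The open triangle is the lower bound for Fzd8 in Tim-4+CD4+ macrophages against monocytes, which had no reads. Fzd8 in the Tim-4- subsets against monocytes is left out because libraries of these subsets also fell to 3 reads or fewer. Fzd8 and Lgr4 stand to the right in both contrasts of Tim-4+CD4+ macrophages, and Fzd4 stands far to the left against monocytes.

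Divided by exon length, the levels can be compared between genes. In Tim-4+CD4+ macrophages Ctnnb1 was at 42.6 ± 2.33 CPM per kb, Lrp6 at 22.0 ± 7.11 and Lrp5 at 21.3 ± 2.04 CPM per kb. Among the Frizzleds of that subset Fzd7 led at 4.47 ± 0.88 CPM per kb, followed by Fzd5 at 1.59 ± 0.43, Fzd8 at 0.738 ± 0.195, Fzd1 at 0.421 ± 0.073 and Fzd4 at 0.155 ± 0.049 CPM per kb, and Lgr4 stood at 1.64 ± 0.26 CPM per kb. Fzd8 thus lay below Fzd7 and Fzd5 and above Fzd1 and Fzd4 in the subset where it was highest. In monocytes the order was Fzd7 at 5.96 ± 0.53, Fzd4 at 2.80 ± 1.01, Fzd5 at 0.737 ± 0.077 and Fzd1 at 0.258 ± 0.046 CPM per kb, with Fzd8 at 0. In both Tim-4- subsets Fzd8 was the lowest of the 5, at 0.0190 ± 0.0169 CPM per kb in Tim-4-CD4- and 0.0347 ± 0.0210 CPM per kb in Tim-4-CD4+ macrophages.

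**Figure D3:**
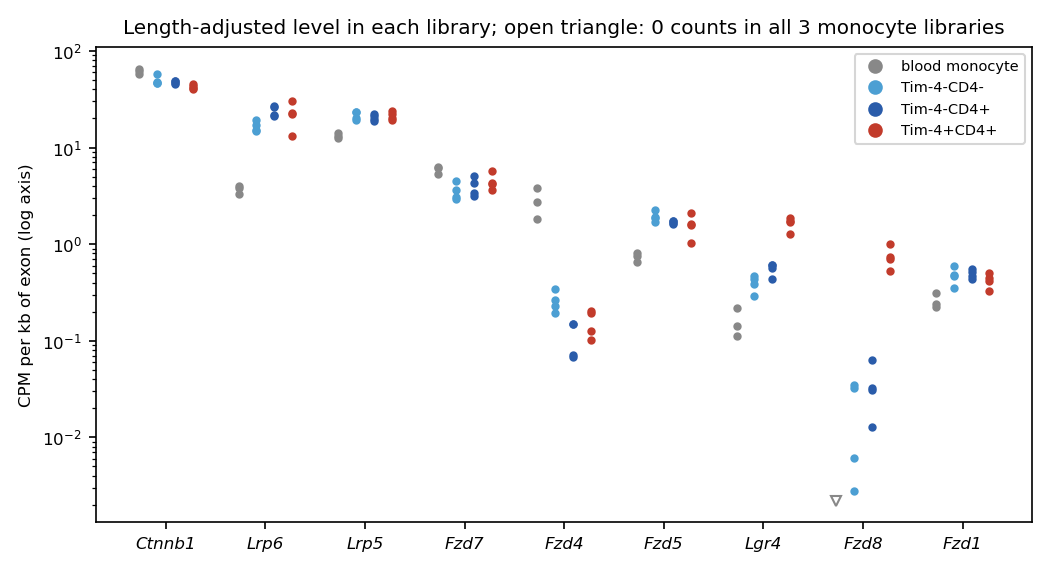
CPM per kb of exon in each library on a log axis, genes ordered by their highest population mean, points colored by population. Ctnnb1, Lrp6 and Lrp5 lie above the Frizzleds in every macrophage subset, and Fzd8 spans the widest range, from 0 reads in monocytes (open triangle, placed at the foot of the axis) to a mean of 0.738 in Tim-4+CD4+ macrophages.

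The remaining members of both receptor families were barely detected. Fzd2 averaged 0.193 ± 0.0719 CPM in Tim-4+CD4+ macrophages and had 1 read in 1 of the 3 monocyte libraries. Fzd3, Fzd6, Fzd9 and Fzd10, and the R-spondin receptors Lgr5 and Lgr6, which mark epithelial stem cells, did not pass the filter on low counts. Of these, the highest macrophage library was Lgr5 in Tim-4-CD4+ replicate 4 at 0.250 CPM. Fzd10 averaged 0.361 ± 0.220 CPM in monocytes. Fzd6, Fzd9 and Lgr5 had no reads in monocytes.

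Across the 12 macrophage libraries, the genes whose log2 CPM was most like that of Fzd8 by Pearson's r, among 11789 genes with a mean of at least 1 CPM, were Speg (r = 0.97), Tmeff1 (0.96), C2 (0.96), Ric3 (0.96) and Cdc42bpa (0.96). C2, a complement component, averaged 1.49, 3.58 and 38.8 CPM in the 3 macrophage subsets. Those most like Lgr4 were Ptprm (r = 0.98), Eya4 (0.98), Cp (0.97), Zcchc14 (0.97) and Arhgef5 (0.96). Cp, the gene of ceruloplasmin, averaged 91.7, 127 and 206 CPM in the same order. Fzd8 and Lgr4 correlated with each other at r = 0.87 over these 12 libraries, which placed Lgr4 at rank 153 for Fzd8. By Spearman's rho the value was 0.59, at rank 1143. The genes ranked highest depended on the measure. By Spearman's rho the 5 most like Fzd8 were Pla2g12a, Creb3l1, Ocln, Col16a1 and Endou, with C2 and Cdc42bpa at rank 170, and those most like Lgr4 were Myo7a, Adcy6, Dnaja4, Spats2 and Pex13. With monocytes included, over 15 libraries, Pearson's r placed C2 at rank 2 for Fzd8 and Cp at rank 1011 for Lgr4. The libraries fall into 3 subsets, and the points share them as well as their depth.

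The wider pathway was read from a list of 108 genes other than the members, of which 91 were in the count table and 73 passed the filter on low counts. Tested with edgeR's quasi-likelihood test and adjusted over all 15802 genes, 37 rose and 19 fell in Tim-4-CD4- macrophages against monocytes, which is 76.7% of the 73 (with 65.4% of all genes). In Tim-4-CD4+ macrophages 37 rose and 20 fell (78.1%, with 69.8% of all genes), and in Tim-4+CD4+ macrophages 34 rose and 21 fell (75.3%, with 70.9% of all genes). The median log2 fold change of the list was 0.68, 0.84 and 0.73 in these 3 comparisons, beside 0.08, 0.11 and 0.10 over all genes. Under a filter of at least 1 CPM on average, 19, 20 and 18 rose and 16, 17 and 15 fell in turn. The excess of rises over falls was smaller there. Between subsets fewer genes moved. Of the 73, 4 rose and 4 fell in Tim-4-CD4+ against Tim-4-CD4- macrophages (11.0%, with 10.1% of all genes), 10 rose and 6 fell in Tim-4+CD4+ against Tim-4-CD4- macrophages (21.9%, with 23.1% of all genes), and 4 rose and 2 fell in Tim-4+CD4+ against Tim-4-CD4+ macrophages (8.22%, with 3.41% of all genes).

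Among the 5 ligands tested, Wnt4 rose between all 3 subsets. It was at 0.0567, 0.00973 and 0.0929 CPM in monocytes, at 30.2 to 41.0 CPM in Tim-4-CD4-, 150 to 208 CPM in Tim-4-CD4+ and 239 to 375 CPM in Tim-4+CD4+ libraries, with no overlap between any 2 populations. It rose by a log2 fold change of 2.31 (SE 0.17, edgeR adjusted p = 2.96e-07) in Tim-4-CD4+ against Tim-4-CD4- macrophages and of 0.86 (SE 0.16, edgeR adjusted p = 0.00402) in Tim-4+CD4+ against Tim-4-CD4+ macrophages. Wnt11, a ligand of the non-canonical branch, ran in the opposite direction. It averaged 3.30 ± 0.532, 0.503 ± 0.193 and 0.122 ± 0.116 CPM in the 3 macrophage subsets, and fell by 2.70 on the log2 scale in Tim-4-CD4+ macrophages compared with Tim-4-CD4- ones (SE 0.47, edgeR adjusted p = 0.00122). Wnt2b rose in all 3 subsets against monocytes and averaged 0.546 to 1.12 CPM in them. Wnt6 fell in all 3, from 2.68 ± 0.215 CPM in monocytes to subset means of 0.0592 to 0.258 CPM.

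Rspo1, the gene of a ligand for LGR4, was highest in monocytes at 29.2, 18.5 and 20.5 CPM. Within the macrophage subsets it averaged 3.15 ± 0.837, 4.48 ± 0.585 and 7.90 ± 2.12 CPM, the same order as Lgr4. It rose in Tim-4+CD4+ against Tim-4-CD4- macrophages by a log2 fold change of 1.33 (SE 0.22, edgeR adjusted p = 0.000333). Against Tim-4-CD4+ macrophages it was 0.82 (SE 0.22, edgeR adjusted p = 0.0477), a call that was lost on leaving out any of 11 of the 15 libraries in turn (adjusted p 0.0204 to 0.157). Wls, the carrier that brings Wnt proteins to the cell surface, fell in Tim-4+CD4+ macrophages by 0.54 against Tim-4-CD4- (SE 0.09, edgeR adjusted p = 0.000228) and by 0.50 against Tim-4-CD4+ macrophages (SE 0.09, edgeR adjusted p = 0.00217), all on the log2 scale.

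Among extracellular inhibitors, Dkk3, a divergent member of the Dickkopf family, had the steepest course. It was at 4.79 to 7.23 CPM in Tim-4-CD4-, 14.7 to 22.1 CPM in Tim-4-CD4+ and 87.1 to 119 CPM in Tim-4+CD4+ libraries, against 0.0195 ± 0.0186 CPM in monocytes. In Tim-4+CD4+ against Tim-4-CD4+ macrophages it rose by a log2 fold change of 2.54 (SE 0.17, edgeR adjusted p = 2.62e-07). Sfrp1, which binds Wnts outside the cell, had no reads in monocytes and averaged 5.18 ± 2.58, 5.61 ± 1.31 and 7.01 ± 1.03 CPM in the 3 macrophage subsets, at least 146-fold higher than the floor of 3 reads per monocyte library. Apcdd1, a membrane inhibitor, fell from 2.69 ± 1.70 CPM to at most 0.638 CPM on average. The fibroblast and smooth muscle markers moved with Sfrp1 and Dkk3 between blood and gut, and their part in these levels was not tested.

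The genes that clear Frizzleds from the membrane rose in macrophages. Znrf3 averaged 1.19 ± 0.182 CPM in monocytes and 13.6 to 17.1 CPM in the subsets. Rnf43 averaged 0.0849 ± 0.0280 CPM in blood and lay at 0.871 to 1.41 CPM in Tim-4-CD4-, 2.46 to 4.50 CPM in Tim-4-CD4+ and 1.72 to 3.15 CPM in Tim-4+CD4+ libraries. Against Tim-4-CD4- macrophages it rose by a log2 fold change of 1.50 in the Tim-4-CD4+ subset (SE 0.28, edgeR adjusted p = 0.00184) and by 1.04 in the Tim-4+CD4+ subset (SE 0.27, edgeR adjusted p = 0.0106). The alternative receptor Ryk, a kinase-like receptor for Wnts, rose from 1.09 ± 0.260 CPM in Tim-4-CD4- to 2.71 ± 0.628 CPM in Tim-4+CD4+ macrophages (log2 fold change 1.32, SE 0.29, edgeR adjusted p = 0.00319). Adgra2, a co-receptor for Wnt7 ligands, fell by 1.14 on the log2 scale in Tim-4-CD4+ against Tim-4-CD4- macrophages (SE 0.34, edgeR adjusted p = 0.0433), a call lost without any of 9 of the 15 libraries, one of them Tim-4-CD4- replicate 3 at 4.33 CPM.

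**Figure D4:**
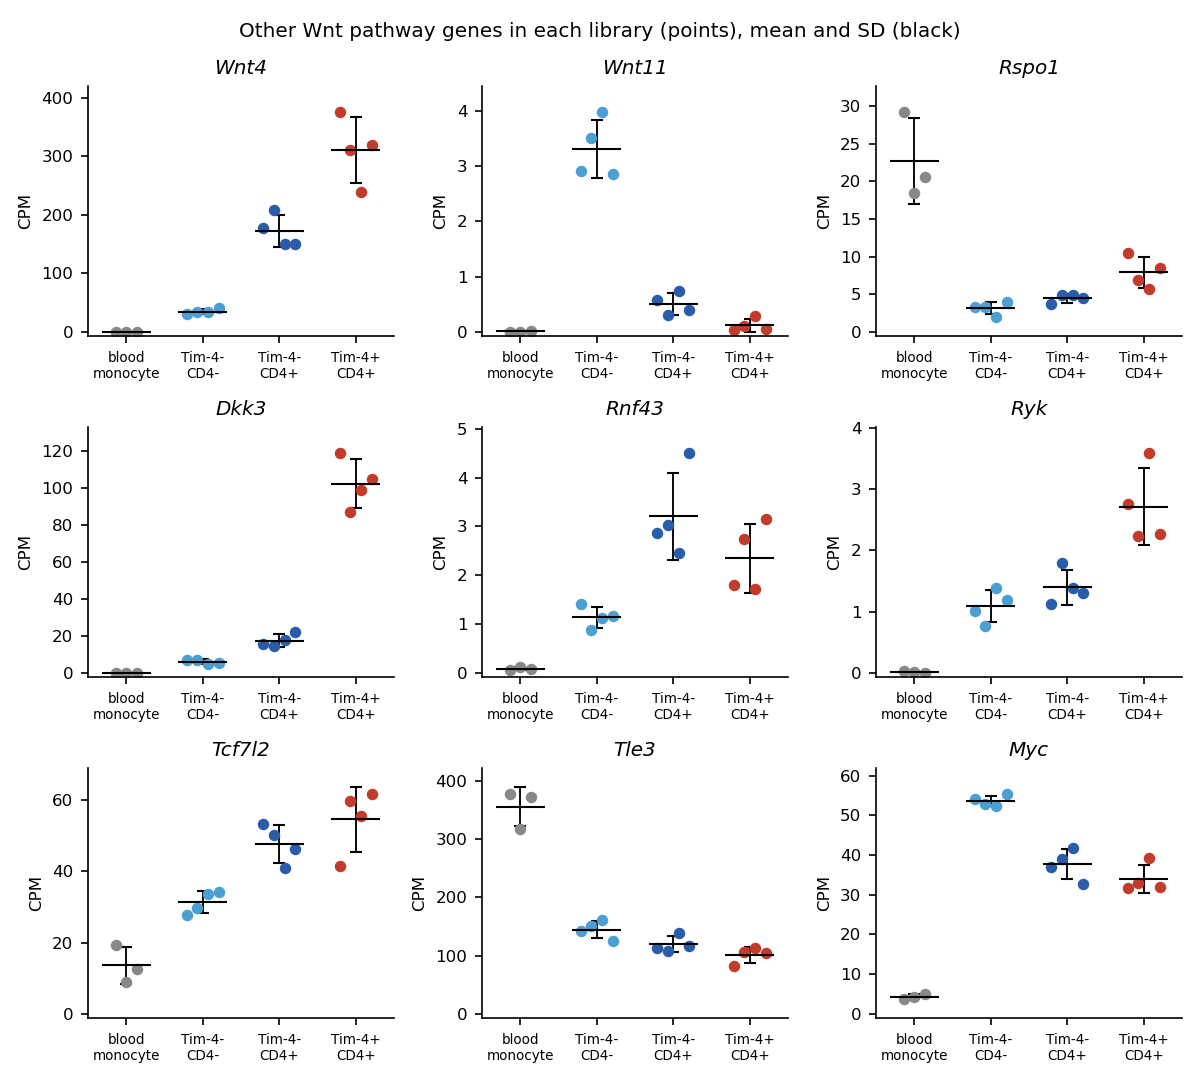
CPM of 9 other pathway genes in each library (points, 1 panel per gene, linear axis) with the mean (horizontal line) and SD (bars) of each population. Wnt4 and Dkk3 step upward through the macrophage subsets, Wnt11 steps downward, and Rspo1 and Tle3 are highest in monocytes.

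Of the 17 genes of the destruction complex and its kinases, 5, 6 and 3 rose and 8 fell in the 3 macrophage subsets against monocytes, which is 76.5%, 82.4% and 64.7% of the 17 beside 65.4%, 69.8% and 70.9% of all genes. The comparisons of the Tim-4-CD4+ subset with each other subset of macrophages gave 0 calls by edgeR and 0 by DESeq2, each with 2 at an unadjusted p under 0.05. In Tim-4+CD4+ against Tim-4-CD4- macrophages 1 rose and 2 fell. Btrc, which tags β-catenin for degradation, was at a log2 fold change of 0.32 (SE 0.11, edgeR adjusted p = 0.0449). Csnk1g3, a casein kinase, was at -0.25 (SE 0.09, edgeR adjusted p = 0.0457). These 2 calls were lost on leaving out 8 and 11 of the 15 libraries in turn, and under 2 and 6 of 7 other settings. Tnks, a tankyrase that promotes turnover of axin, was at -0.42 (SE 0.14, edgeR adjusted p = 0.0382). The stability of that call was not examined. DESeq2 called 2 of the 17 in this comparison. Amer1 and Tnks also fell against monocytes in all 3 subsets, Amer1 from 15.5 ± 2.36 CPM to between 5.56 and 6.34 CPM. Ctnnbip1, which blocks the binding of β-catenin to TCF factors, fell by 0.36 on the log2 scale in Tim-4-CD4+ (SE 0.08, edgeR adjusted p = 0.00811) and by 0.35 in Tim-4+CD4+ macrophages (SE 0.08, edgeR adjusted p = 0.00409), each against Tim-4-CD4-.

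Of the nuclear factors, the TCF gene Tcf7l2 was lowest in blood. It was at 13.6 ± 5.17 CPM in monocytes and at 31.4 ± 3.08, 47.7 ± 5.32 and 54.7 ± 9.06 CPM in the 3 macrophage subsets. It rose in Tim-4+CD4+ against Tim-4-CD4- macrophages by 0.80 on the log2 scale (SE 0.18, edgeR adjusted p = 0.00365). In Tim-4-CD4+ against Tim-4-CD4- macrophages the rise was 0.60 (SE 0.18, edgeR adjusted p = 0.0425), a call lost without any of 7 of the 15 libraries. Tcf7 rose in all 3 subsets against monocytes, to 1.32 to 2.14 CPM, whereas Lef1 averaged 0.0967 to 0.360 CPM over the populations and passed the test in none of the 6 comparisons. The co-repressor gene Tle2 rose from 0.759 ± 0.118 CPM in monocytes to 13.5 ± 2.64 CPM in Tim-4+CD4+ macrophages (log2 fold change 4.17, SE 0.19, edgeR adjusted p = 4.48e-12), and its relative Tle3 fell from 356 ± 33.6 CPM to 102 ± 13.6 CPM. In the planar polarity group Celsr2, Celsr3, Vangl2 and Daam1 fell in all 3 subsets against monocytes, Celsr3 from 14.7 ± 0.868 CPM to at most 0.405 CPM on average. The call for Celsr2 in Tim-4-CD4+ macrophages was lost without monocyte replicate 2 (edgeR adjusted p = 0.0812).

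A list of 17 common target genes of the pathway, 14 of them tested, was counted separately. It shares Rnf43 with the pathway list, so its counts are not independent of those above. Against monocytes 11 rose and 1 fell in each subset, the latter being Cd44, which is 85.7% of the 14 beside 65.4%, 69.8% and 70.9% of all genes. Of the 15 epithelial markers, 13 rose in the same comparisons, and the part of epithelial RNA in the levels of the target genes was not tested. Axin2, the most general target of β-catenin, averaged 0.338 to 0.427 CPM in the macrophage subsets and 0.0156 ± 0.0193 CPM in monocytes. Nkd1 averaged 0.251, 0.390 and 0.561 CPM in the 3 macrophage subsets and had no reads in monocytes. Between subsets, Ccnd1, Myc and Cd44 fell and Rnf43 rose in both CD4+ subsets against Tim-4-CD4-, so that Myc went from 53.7 ± 1.30 CPM to 34.0 ± 3.52 CPM in Tim-4+CD4+ macrophages, a fall of 0.66 on the log2 scale (SE 0.10, edgeR adjusted p = 0.000129). The fall of Cd44 in Tim-4-CD4+ against Tim-4-CD4- macrophages was lost without any of 10 of the 15 libraries, and the libraries overlapped for Ccnd1 in that comparison. For Tim-4+CD4+ against Tim-4-CD4+ macrophages 0 of the 14 passed edgeR's test and 0 passed DESeq2, with 1 at an unadjusted p under 0.05. Each of these genes also answers to other signals.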

How the data were processed

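RNA was sequenced from 15 pools of sorted mouse cells. The authors deposited raw read counts per gene, made with bcl2fastq 2.17.1.14, Trimmomatic 0.36, STAR and HTSeq 0.6.1p1 on GRCm38.p4, per the processing notes and methods. The strand setting of the counting is not given in the sources used here. Gene symbols, positions and exon lengths came from GENCODE M21, which matched 19421 of 19456 IDs, and 15 further columns of per-sample values were not used. Counts were filtered with filterByExpr, scaled by TMM and fitted over all 15 libraries with the quasi-likelihood test of edgeR 4.0.16 (limma 3.58.1, R 4.3.3), with Benjamini-Hochberg adjustment at 0.05. The fit was tested on simulated data. Likeness used log2 CPM with a prior count of 2. Tables and plots used Python 3.11.15, pandas 2.3.3, numpy 2.4.6 and matplotlib 3.10.9.

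The members and gene lists were chosen with earlier results of these data known. Pathway genes were named if they belonged to the receptor families or a short fixed set, or passed the test without overlap of libraries at a mean of at least 1 CPM, with up to 10 per direction against monocytes. Tnks and Ccnd1 between subsets were named after their values were seen, to complete counts. Replicates of 1 population came from separate pools of mice. Alternatives were DESeq2 1.42.0, RLE factors, other filters, only the groups compared, replicate blocks, an added 2-fold threshold, unscaled totals, likeness by Spearman's rho or over all 15 libraries, and leaving out each library. No pair of libraries agreed within sampling noise. Total counts of 48739371 or more per monocyte library make 3 reads worth at most 0.0557 CPM in the monocyte libraries.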

Additional observations from a re-analysis of the deposited data

Results flagged for a closer look

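In 144 groups of 4 libraries (the members and named genes in each macrophage subset), 14 had 1 library set apart from the other 3 by Dixon's criterion, and chance gives about 1 in 20. Ctnnb1 in Tim-4-CD4- replicate 2 was at 301 CPM, above 240 to 250 CPM in the other 3. Myc in Tim-4+CD4+ replicate 3 was at 39.2 CPM, above 31.8 to 32.8 CPM. Vangl2 in Tim-4+CD4+ replicate 4 was at 0.929 CPM, above 0.574 to 0.602 CPM. The remaining 11 rest on 1 to 16 reads. In Tim-4-CD4- macrophages they were Fzd2 at 0.345 CPM, Fzd9 at 0.108 CPM and Lgr6 at 0.0431 CPM in replicate 3, and Fzd3 at 0.201 CPM and Lgr5 at 0.0168 CPM in replicate 2. In Tim-4-CD4+ macrophages they were Fzd6 at 0.0183 CPM in replicate 1, Fzd10 at 0.101 CPM in replicate 2 and Lgr6 at 0.0639 CPM in replicate 3. In Tim-4+CD4+ macrophages they were Fzd9 at 0.0775 CPM and Lgr6 at 0.138 CPM in replicate 2, and Fzd10 at 0.0829 CPM in replicate 4.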

How the results depend on the processing

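Fold changes of the 9 members moved by less than the spread between libraries under every alternative in which they were tested. Fzd8 and Lgr4 stayed past the threshold in both contrasts of Tim-4+CD4+ macrophages with the other subsets under each of them. Both genes had been chosen with these contrasts known, so nothing is read from their calls. Scaling by unscaled totals moved 2 of 36 member levels by more than 1 SD, Lrp5 to 139 CPM and Ctnnb1 to 343 CPM in monocytes. Of the calls for named pathway genes, 23 of 617 values under other settings and 61 of 1350 with a library left out fell below the threshold, and none reversed. Of 24 likeness values by the other measures, 8 moved. Among the 73 pathway genes, a mean of at least 1 CPM left 35, 37 and 33 calls against monocytes in place of 56, 57 and 55. The 3 macrophage subsets stand in the order Tim-4-CD4-, then Tim-4-CD4+, then Tim-4+CD4+. Rises numbered 19, 20 and 18 in place of 37, 37 and 34. Falls numbered 16, 17 and 15 in place of 19, 20 and 21. Fewer genes were tested under that filter. Requiring a 2-fold change left 6 calls in place of 16 for Tim-4+CD4+ against Tim-4-CD4- macrophages and 2 in place of 6 for Tim-4+CD4+ against Tim-4-CD4+ macrophages, and fitting only those 2 groups left 3 of the latter (the cause was not tested). With a replicate block by the numbers in the titles, 5 in place of 8 were called for Tim-4-CD4+ against Tim-4-CD4- macrophages. Deviations of same-numbered macrophage libraries correlated between -0.123 and 0.161 whether numbered by title or by column, so neither numbering was taken to pair libraries, and whether subsets of 1 sort shared mice was not tested. With 1 library left out, calls against monocytes ranged from 52 to 56, 55 to 59 and 52 to 58. Between subsets they ranged from 5 to 8, with 5 without Tim-4-CD4+ replicate 2, from 11 to 17, and from 3 to 6, with 3 without Tim-4-CD4+ replicate 1 or Tim-4+CD4+ replicate 1. The few reads on Fzd8 outside Tim-4+CD4+ macrophages limit its fold changes.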
